A study of Homo sapiens with 6 samples.

Results

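Antisense RNAs are long non-coding RNAs named after a protein-coding neighbour whose strand they face, with the symbol of that sense gene followed by -AS and a number. The table held 1822 features with such a symbol among 61496 features, and 413 of them had a mean level of at least 2 CPM, counts scaled to a library total of 1000000, over the 6 libraries. The 300 with the highest mean were analyzed together with the genes named before -AS. The members were therefore chosen by their measured mean level over both groups and not by the difference between the groups. The mean level was between 3.18 and 68.7 CPM, with a median of 6.58 CPM. Of the 300 antisense RNAs, 296 had a sense gene in the table, which made 291 distinct sense genes, and 10 members shared a sense gene with another member. HOXB-AS2, HOXC-AS2, HOXD-AS2 and KRTAP5-AS1 had none.

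The libraries were made from U251, 1 established human glioma cell line. Untreated cells gave the 3 control libraries, and cells exposed to sevoflurane (Sev), a volatile anesthetic gas, for 2 h gave the 3 Sev libraries. The labels name concentrations of 5.1%, 3.4% and 1.7% and assign none of them to a library, and the study ties 5.1% to the sequenced cells only in a figure legend. Ribosomal RNA was depleted and the adapters were strand-specific, but the strand setting of the read counting is not given in the sources used here, so reads of an antisense RNA and of an overlapping sense exon cannot be told apart with certainty. The study describes its quantitative data in general as coming from independent experiments, but no label says whether the libraries of a group came from separate cultures, so the p-values measure the spread between these libraries, which may be technical. Totals were between 38624292 and 46318311 counts. All 7 glial markers were above the filter on low counts, and of these CD44 and EGFR were higher and SOX2 and S100B lower in Sev. Their summed level was between 7663 and 8559 CPM in control and between 8721 and 9189 CPM in Sev. Marker sums use TMM scaling between libraries, which raised Sev levels relative to control compared with library size alone. Of 11 markers of epithelial, blood, endothelial and neuronal cells, 5 were under 1 CPM in both groups, among them CD3E at 0. Of the 6 that could be tested 3 were higher in Sev (SYT1, KRT18 and PECAM1), and the summed level was between 41.5 and 43.5 CPM in control and between 54.7 and 61.3 CPM in Sev. Its part in the results was not tested.

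An antisense RNA can start near the 5′ end of its sense gene on the other strand (head to head). It can also run into the 3′ end of the sense gene (tail to tail) or lie within it. Such RNAs are known for acting in cis on the chromatin or the transcription of the neighbour, for pairing with the sense RNA, and for acting elsewhere in the cell. Many are made at low levels and are removed in the nucleus by the RNA exosome, and the Integrator complex ends the transcription of many non-coding units.

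Among the 300 antisense RNAs, 189 had a RefSeq promoter window that starts within 100 bases of an annotated transcript start of the same Ensembl gene. A window covers 250 bases before to 50 bases after the RNA start. Both windows were at hand for 155 antisense and sense pairs on opposite strands. In 18 of these pairs the windows shared bases, and in all 18 the starts pointed away from each other. The windows reach farther before a start than after it. Starts that point apart therefore share bases over a longer distance than facing starts, so this direction was in part set by the windows. Windows are shown for the pair with the smallest p among the members called higher (ID2), for the pair with a shared window that was called in opposite directions (LMCD1), for a shared window of which only the antisense RNA was called (TPT1-AS1), and for the antisense RNA with the smallest p for a higher ratio to its sense gene (EMC3-AS1). All are from RefSeq on GRCh38.p14, written 5′ to 3′ on the strand of the named gene. Capitals mark matches on either strand to a handful of core promoter and factor motifs. These were the CCAAT box with the letters CCAAT, the GC box of Sp factors with the letters GGGCGG, and the cyclic AMP response element with the letters TGACGTCA. The E-box with the letters CACGTG and the TATA box with the letters TATAAA were searched as well. A match is a run of letters and not a shown binding site.
ID2: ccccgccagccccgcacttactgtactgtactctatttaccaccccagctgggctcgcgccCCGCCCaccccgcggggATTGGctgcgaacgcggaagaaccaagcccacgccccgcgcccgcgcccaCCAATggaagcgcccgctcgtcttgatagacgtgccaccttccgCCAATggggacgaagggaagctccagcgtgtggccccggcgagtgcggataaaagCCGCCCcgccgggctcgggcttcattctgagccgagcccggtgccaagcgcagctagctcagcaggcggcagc
LMCD1: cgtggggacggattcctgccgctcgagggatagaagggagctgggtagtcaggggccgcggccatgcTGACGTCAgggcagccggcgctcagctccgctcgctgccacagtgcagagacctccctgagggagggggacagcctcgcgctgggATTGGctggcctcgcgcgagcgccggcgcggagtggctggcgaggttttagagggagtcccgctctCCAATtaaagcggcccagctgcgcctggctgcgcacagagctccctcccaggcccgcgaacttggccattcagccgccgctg
TPT1-AS1: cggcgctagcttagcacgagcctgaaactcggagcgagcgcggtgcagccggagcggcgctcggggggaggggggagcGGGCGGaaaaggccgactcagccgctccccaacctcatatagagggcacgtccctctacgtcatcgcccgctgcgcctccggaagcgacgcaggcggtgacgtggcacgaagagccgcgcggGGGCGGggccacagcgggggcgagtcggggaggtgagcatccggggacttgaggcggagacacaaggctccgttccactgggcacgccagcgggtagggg
EMC3-AS1: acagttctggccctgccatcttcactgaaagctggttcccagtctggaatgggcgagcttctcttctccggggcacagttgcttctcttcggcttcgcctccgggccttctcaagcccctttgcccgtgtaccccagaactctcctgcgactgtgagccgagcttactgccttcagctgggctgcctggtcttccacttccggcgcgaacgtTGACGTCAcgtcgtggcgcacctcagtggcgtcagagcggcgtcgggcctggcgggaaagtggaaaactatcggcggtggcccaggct

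The ID2 window lies at chr2:8681806-8682105 on the plus strand. The window of ID2-AS1, on the minus strand, shares 292 bases with it, and the RNA starts are 193 bases apart. It holds CCAAT 3 times and GGGCGG 2 times. The LMCD1 window (chr3:8501573-8501872, plus strand) shares 264 bases with that of LMCD1-AS1 and holds CCAAT 2 times and TGACGTCA 1 time. The TPT1-AS1 window (chr13:45341095-45341394, plus strand) shares 261 bases with that of TPT1 and holds GGGCGG 2 times. The EMC3-AS1 window (chr3:9986643-9986942, plus strand) holds TGACGTCA 1 time. Among all 27305 promoters of the RefSeq table, 35.7% hold CCAAT, 44.6% hold GGGCGG, 1.98% hold TGACGTCA, 7.43% hold CACGTG and 12% hold TATAAA. Among the members' windows, TGACGTCA was found in 5 of 61 that were called lower (8.20%), in 1 of 43 called higher (2.33%) and in 2 of 85 not called (2.35%). GGGCGG was found in 59.0% of the windows called lower, in 41.9% of those called higher and in 54.1% of those not called, and the median GC content was 63.0%, 57.7% and 63.3%, so the windows called lower were close to those not called. CACGTG was found in 13.1%, 11.6% and 3.53% of these windows, CCAAT in 39.3%, 27.9% and 31.8% and TATAAA in 8.2%, 11.6% and 9.41%. Among the 220 windows of sense genes 4.55% held TGACGTCA and 63.2% GGGCGG.

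After Sev exposure more antisense RNAs fell than rose. All 300 passed the filter on low counts, and 69 (23.0%) were called higher and 93 (31.0%) lower in Sev by edgeR's quasi-likelihood test with a Benjamini-Hochberg adjusted p under 0.05. Over all 27514 features tested, 22.2% were called higher and 21.5% lower, so the share called higher was near that of all features and the share called lower was above it. With library size alone in place of TMM scaling 54 members were higher and 105 lower, beside 16.9% and 27.3% of all features. With the threshold of the study, a log2 fold change over 1 in size and an unadjusted p under 0.05, 33 members (11.0%) were higher and 49 (16.3%) lower, beside 11.4% and 12% of all features. The levels of the groups did not overlap for 79 members with Sev above (26.3%, and 28.3% of all features) and for 106 with Sev below (35.3%, and 28.2% of all features). The median log2 fold change was −0.12 for the members and −0.01 for all features. Summed over the members, the share of all counts was between 0.323% and 0.370% in control and between 0.286% and 0.295% in Sev. In these bulk samples fewer cells with an RNA and less RNA per cell cannot be told apart.

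The antisense RNAs called higher with the smallest p-values belonged to neighbours of several kinds. ID2-AS1 is transcribed away from ID2, an inhibitor of basic helix-loop-helix transcription factors (chr2:8666636-8681863, minus strand, GENCODE 29 on GRCh38). It stood at 2.41, 2.17 and 2.47 CPM in the control libraries and at 27.1, 26.7 and 23.9 CPM in the Sev libraries. All Sev libraries were far above all control libraries, with a log2 fold change of 3.46 (SE 0.13, adjusted p = 1.29e-05). SLFNL1-AS1 (chr1:41014590-41043890, plus strand) rose from 18.5, 21.1 and 23.0 CPM to 69.8, 67.2 and 69.2 CPM, a log2 fold change of 1.72 (SE 0.10, adjusted p = 6.23e-05). The Sev libraries lay close together, and 29.7% of the exon bases of SLFNL1-AS1 overlap an exon on the other strand. MTUS2-AS1, inside the gene of a microtubule-associated protein, was nearly absent from control, with 3, 14 and 6 counts. It held 412, 326 and 431 counts in Sev (log2 fold change 5.81, SE 0.42, adjusted p = 0.000109), so its mean level passed the limit for members through the Sev libraries. The same holds for ID2-AS1 (control mean 2.47 CPM before TMM scaling), since the lowest mean of a member was 3.18 CPM.

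EMC3-AS1 shares its locus with EMC3, a subunit of the membrane protein insertion complex of the endoplasmic reticulum. It was at 5.95, 5.07 and 4.07 CPM in control and at 27.6, 19.96 and 28.1 CPM in Sev (log2 fold change 2.33, SE 0.20, adjusted p = 0.000172). MAP3K4-AS1 was among the 3 most abundant members and starts beside MAP3K4, a kinase of the stress-activated MAP kinase cascade. Its level was 42.0, 46.3 and 43.2 CPM in control and 98.2, 100.2 and 83.9 CPM in Sev (log2 fold change 1.10, SE 0.10, adjusted p = 0.000196). The remaining ones of this group, PALLD-AS1, SAMD4A-AS1 and THBS4-AS1, had control means between 1.94 and 2.79 CPM and Sev means between 6.11 and 8.92 CPM, and they too passed the limit for members through the Sev libraries. PALLD encodes an actin-associated scaffold protein, SAMD4A an RNA-binding translational repressor and THBS4 an extracellular matrix protein. All 8 were named for their small p and for groups that do not overlap, so the gap between the groups in the plot of the levels by library is a condition of their choice.

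**Figure D1:**
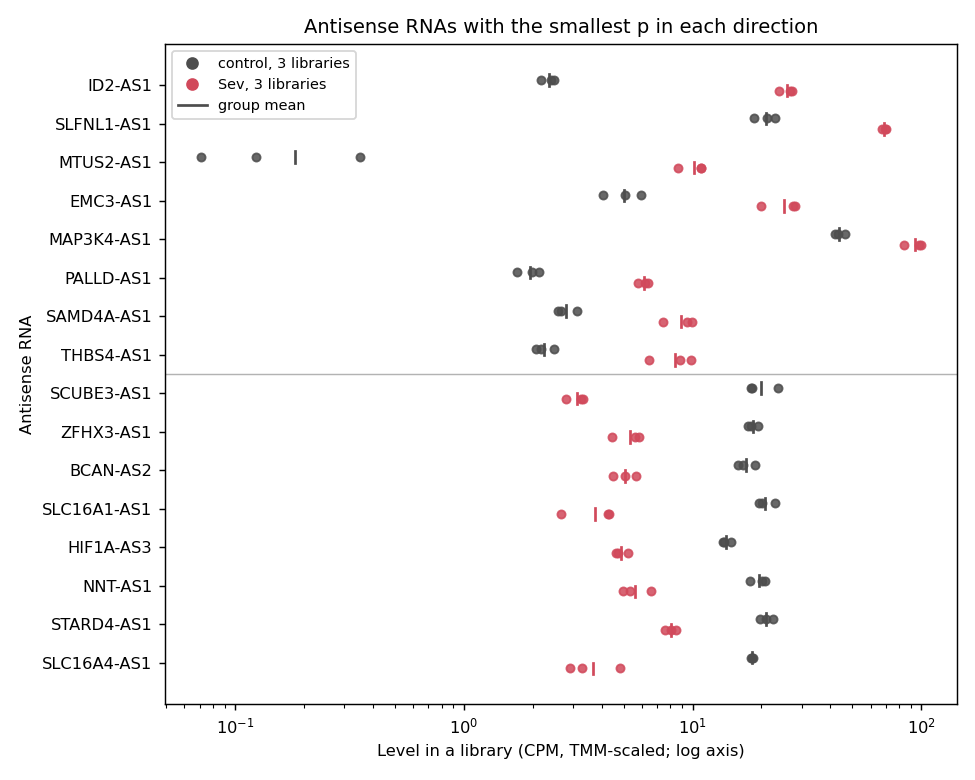
Level of the 8 antisense RNAs called higher and the 8 called lower with the smallest p-values, in CPM on a log axis, with 1 point for each of the 3 control (grey) and 3 Sev (red) libraries and a tick at each group mean. The 16 were chosen among members whose groups do not overlap. ID2-AS1 moves from between 2.17 and 2.47 CPM to between 23.9 and 27.1 CPM.

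The antisense RNAs called lower were led by SCUBE3-AS1, next to a secreted EGF-domain protein gene. It stood at 23.5, 18.0 and 18.3 CPM in control and at 2.81, 3.24 and 3.33 CPM in Sev, a log2 fold change of −2.67 (SE 0.16, adjusted p = 6.67e-05). Its Sev mean before TMM scaling was 2.98 CPM, so it passed the limit for members through the control libraries. The exons of SCUBE3-AS1 in GENCODE 29 overlap no exon on the other strand. SLC16A1-AS1 (chr1:112956415-113047055, plus strand) lies head to head with SLC16A1, which encodes the lactate and pyruvate transporter MCT1. It fell from 22.9, 19.6 and 20.1 CPM to 4.27, 2.66 and 4.31 CPM (log2 fold change −2.47, SE 0.20, adjusted p = 0.000157). SLC16A4-AS1, within another gene of the monocarboxylate transporter family, was at 18.4, 18.2 and 18.0 CPM in control and at 3.29, 2.92 and 4.81 CPM in Sev (log2 fold change −2.31, SE 0.20, adjusted p = 0.000174). SLC16A4-AS1 has no exon that overlaps one on the other strand.

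NNT-AS1 faces NNT, the mitochondrial enzyme that makes NADPH from NADH. Its level was 20.7, 17.8 and 20.1 CPM in control and 5.33, 4.94 and 6.55 CPM in Sev (log2 fold change −1.80, SE 0.15, adjusted p = 0.000160). HIF1A-AS3, tail to tail with the gene of the oxygen-regulated factor HIF-1α, was at 13.6, 13.7 and 14.7 CPM in control and at 4.61, 5.24 and 4.71 CPM in Sev (log2 fold change −1.53, SE 0.13, adjusted p = 0.000160). STARD4-AS1, beside a sterol carrier gene, was at 22.5, 19.6 and 21.0 CPM in control and at 7.61, 8.48 and 8.07 CPM in Sev (log2 fold change −1.39, SE 0.11, adjusted p = 0.000165). The other 2 of the leading 8 were ZFHX3-AS1 (log2 fold change −1.78) and BCAN-AS2 (log2 fold change −1.75). ZFHX3 encodes a homeobox transcription factor, and BCAN encodes brevican, a proteoglycan of the brain extracellular matrix.

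The most abundant antisense RNAs did not move together. GABPB1-AS1 had the highest mean by the unscaled CPM that chose the members (68.7 CPM). After TMM scaling it stood at 110.7, 69.2 and 71.6 CPM in control and at 64.8, 58.5 and 32.1 CPM in Sev, and although the groups did not overlap its difference did not pass the test (log2 fold change −0.69, SE 0.28, adjusted p = 0.0767). GABPB1-AS1 passed it with library size scaling (0.0359), in DESeq2 (0.0274), with a replicate block (0.0251) and with limma on log2(FPKM + 1) (0.0479), all adjusted p-values. Its log2 fold change was −0.44 without Sev replicate 3 and −0.45 without control replicate 1. FGD5-AS1, with 61.8 ± 7.89 CPM in Sev and 73.1 ± 12.96 CPM in control (SD, n = 3), did not pass the test either. WARS2-AS1, beside the mitochondrial tryptophanyl-tRNA synthetase gene, fell from 86.5 ± 5.15 to 38.3 ± 10.4 CPM (log2 fold change −1.18). NR2F1-AS1 and NUTM2B-AS1 fell by 0.36 and 0.44 on the log2 scale. NUTM2B-AS1 lost its call without control replicate 1 or without control replicate 3 (adjusted p between 0.0534 and 0.0596 in edgeR). MAP3K4-AS1 and SH3BP5-AS1 rose, by log2 fold changes of 1.10 and 0.77.

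Of the 286 distinct sense genes that passed the filter, 95 (33.2%) were called higher and 60 (21.0%) lower with TMM scaling between libraries, and 69 were called higher and 82 lower when library size alone was used. With library size these are 24.1% and 28.7%, beside 16.9% and 27.3% of all features. With TMM 22.2% of all features were higher and 21.5% lower, so the share of sense genes called lower was near that of all features. At the threshold of the study 22 sense genes (7.69%) were higher and 11 (3.85%) lower, both below the 11.4% and 12% of all features. Library size in place of TMM shifted the median log2 fold change of all features from −0.01 to −0.15. The median of the sense genes was 0.10 with TMM and −0.04 with library size, and that of the members was −0.12 and −0.26. A change of scaling moves all log2 fold changes by nearly the same amount by construction.

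In 291 pairs both RNAs were tested. Their log2 fold changes had the same sign in 193 pairs (66.3%), with a Pearson r of 0.553 and a Spearman rho of 0.531 across these 291 pairs, which are not independent replicates and share libraries, and in part exons. In the 74 pairs whose exons do not overlap each other, r was 0.489. Both genes of a pair were called in 90 pairs, 48 of them with both higher, 31 with both lower and 11 in opposite directions. These counts and the share with the same sign were not set beside those of all 1052 testable pairs. Whether they are unusual was not tested. The 11 became 5 without control replicate 1, 6 without Sev replicate 1 and 7 without control replicate 3, and the 79 in the same direction became 52 without control replicate 3. Only the antisense RNA was called in 67 pairs and only the sense gene in 69, and in 65 pairs neither was. The median log2 fold change of the sense gene was 0.61 where the antisense RNA was called higher, 0.11 where it was not called and −0.22 where it was called lower.

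**Figure D2:**
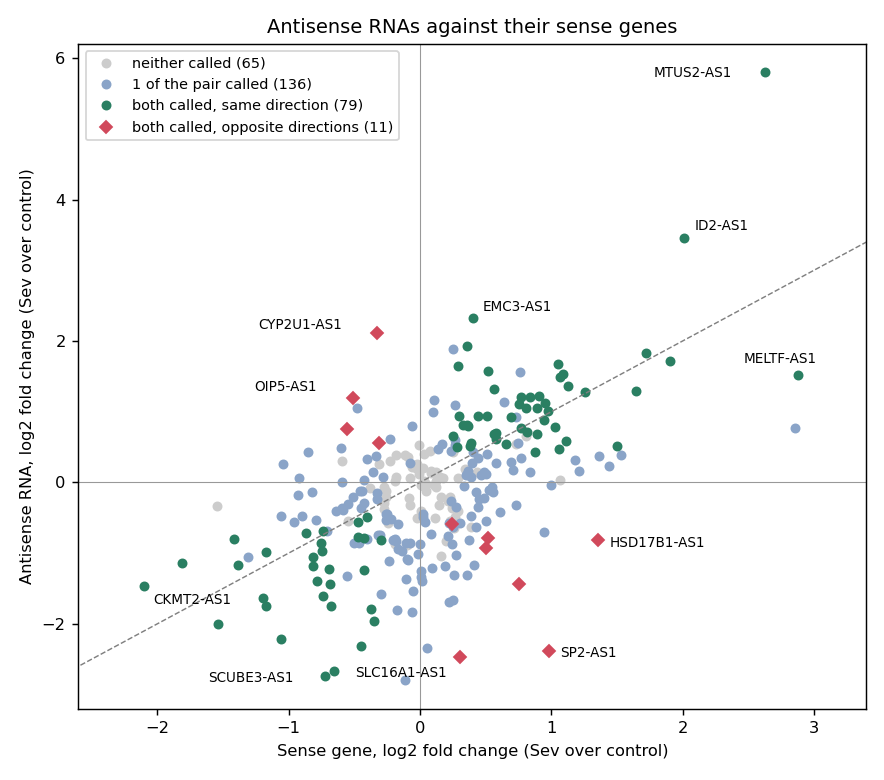
Log2 fold change (Sev over control) of each antisense RNA, vertical axis, against that of its sense gene, horizontal axis, for 291 pairs, with the diagonal of equal change dashed and colours for which of the pair was called. The 79 pairs called in the same direction lie at the upper right and lower left and the 11 called in opposite directions (red diamonds) in the others.

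Pairs called in the same direction held some of the most changed sense genes. ID2 rose from 37.5, 31.0 and 32.3 CPM to 131, 168 and 107 CPM, a log2 fold change of 2.01 (SE 0.17, adjusted p = 0.000168). MELTF, the gene of the iron-binding surface protein melanotransferrin, went from 9.18, 9.30 and 9.77 CPM to 67.7, 59.8 and 79.9 CPM (log2 fold change 2.88, SE 0.13, adjusted p = 2.12e-05). MELTF-AS1 rose less, from a mean of 2.28 ± 0.195 to 6.502 ± 0.948 CPM (SD, n = 3). SLFNL1 rose by a log2 fold change of 1.90 (SE 0.11, adjusted p = 5.10e-05), SAMD4A by 1.05 and LURAP1L by 1.09, next to 1.53 for LURAP1L-AS1. Both RNAs were lower at CKMT2, a mitochondrial creatine kinase gene, with log2 fold changes of −2.10 for CKMT2 and −1.47 for CKMT2-AS1. The same held for BCAN (−1.17, with −1.75 for BCAN-AS2) and SRGAP2 (−0.68, with −1.75 for SRGAP2-AS1). Before TMM scaling MELTF-AS1 had a control mean of 2.39 CPM and SRGAP2-AS1 a Sev mean of 2.99 CPM. Each passed the limit for members only through the group in which it was higher, as did ID2-AS1. SRGAP2-AS1 lies on chromosome 1 at a distance from SRGAP2 and does not overlap it, so its name does not mark a facing gene there.

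Pairs called in opposite directions were few. SLC16A1 stood at 153, 176 and 171 CPM in control and at 230, 201 and 189 CPM in Sev (log2 fold change 0.31, SE 0.10, adjusted p = 0.0373) while SLC16A1-AS1 fell. The call of SLC16A1 was lost without any 1 of control replicates 1, 2 and 3 or Sev replicates 1 and 2 (adjusted p in edgeR between 0.0541 and 0.137). It was lost in 11 of 15 alternatives in all, library size scaling, the replicate block and limma on FPKM among them, with adjusted p-values between 0.0280 and 0.242 over the 15. LMCD1, a LIM-domain cofactor gene, rose from 75.8, 66.1 and 72.1 CPM to 113, 130 and 118 CPM (log2 fold change 0.75, SE 0.09, adjusted p = 0.000614). LMCD1-AS1 fell from 6.68, 4.79 and 5.41 CPM to 1.88, 2.02 and 2.34 CPM (log2 fold change −1.43, SE 0.19, adjusted p = 0.000982), and none of its exons overlap those of LMCD1. The windows of LMCD1 and LMCD1-AS1 share 264 bases and those of ID2 and ID2-AS1, which both rose, share 292. RALY, an RNA-binding protein gene, rose by 0.50 and RALY-AS1 fell by 0.93 on the log2 scale (adjusted p = 0.00303 and 0.00501 in edgeR), and ZBED3 and ZBED3-AS1 changed by 0.52 and −0.79. LMCD1-AS1 and RALY-AS1 had Sev means of 1.99 and 2.13 CPM before TMM scaling. Both passed the limit for members through the control libraries. BVES-AS1 fell by 0.58 on the log2 scale and BVES, a gene of a membrane protein that binds cyclic AMP, had 0.25, a call that no fit without 1 library kept (adjusted p in edgeR between 0.0533 and 0.124) and that was lost in 12 of 15 alternatives. The call of BVES-AS1 itself was lost without control replicate 2 or Sev replicate 1 (adjusted p in edgeR between 0.0542 and 0.0670).

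SP2 encodes a transcription factor of the Sp family. SP2-AS1 stood at 5.00, 6.02 and 7.04 CPM in control and at 0.424, 2.60 and 0.429 CPM in Sev, with Sev replicate 2 above the other two (log2 fold change −2.39, SE 0.63, adjusted p = 0.0177). Without control replicate 3 its adjusted p was 0.0511. The Sev mean of SP2-AS1 before TMM scaling was 1.07 CPM, so it passed the limit for members through the control libraries. SP2 itself rose by 0.98 (SE 0.11, adjusted p = 0.000575). HSD17B1-AS1 fell by 0.81 on the log2 scale and HSD17B1, an estradiol-forming enzyme gene, rose by 1.36, but 85.2% of the exon bases of HSD17B1-AS1 overlap exons on the other strand. The call of HSD17B1 was lost without control replicate 1 or without Sev replicate 1 (adjusted p in edgeR 0.0655 and 0.0532).

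The antisense RNA was higher and the sense gene lower in 4 pairs. OIP5-AS1, also known as Cyrano, rose from 24.3, 31.0 and 18.1 CPM to 48.2, 52.5 and 66.3 CPM (log2 fold change 1.19, SE 0.20, adjusted p = 0.00285). OIP5, a gene of centromere assembly, was at 9.77, 11.7 and 11.3 CPM in control and at 8.27, 8.16 and 6.63 CPM in Sev (log2 fold change −0.51, SE 0.15, adjusted p = 0.0243). OIP5 missed the threshold in the fits that left out control replicate 2, control replicate 3 and Sev replicate 3 (adjusted p in edgeR between 0.0655 and 0.0754). CYP2U1-AS1 rose by 2.12 beside a cytochrome P450 gene with a log2 fold change of −0.32, a call lost in 5 of 6 fits without 1 library, all but that without Sev replicate 2 (adjusted p in edgeR between 0.0596 and 0.136) and in 8 of 15 alternatives in all. TTC23-AS1 and TTC23 changed by 0.76 and −0.56, the latter call being lost without control replicate 1 or Sev replicate 1 (adjusted p in edgeR between 0.0669 and 0.0703). LDLRAD4-AS1 and LDLRAD4, outside the rule for named genes and added because the group is small, changed by 0.56 and −0.31.

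**Figure D3:**
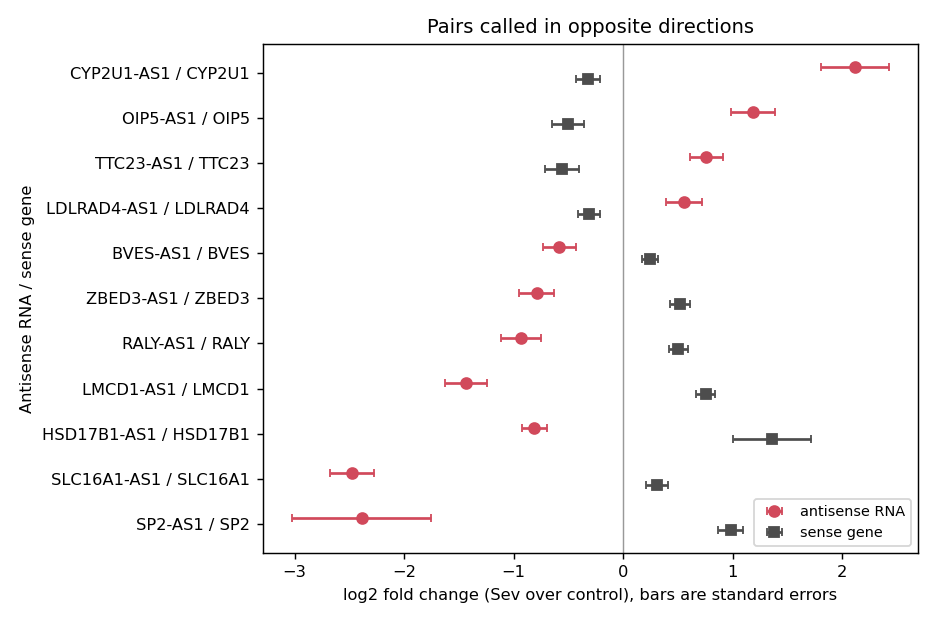
Log2 fold change (Sev over control, horizontal axis) with its standard error for the antisense RNA (circle) and the sense gene (square) of the 11 pairs called in opposite directions. SLC16A1-AS1 at −2.47 and SP2-AS1 at −2.39 lie farthest to the left, and CYP2U1-AS1 at 2.12 farthest to the right.

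A call in 1 gene of a pair and not in the other is no difference between them, so the antisense-to-sense ratio within each library was tested. The ratio was called higher in Sev in 25 pairs (8.59%) and lower in 56 (19.2%), beside 7.89% and 16% of all 1052 antisense and sense pairs that could be tested at any level. The median change of the ratio was −0.18 on the log2 scale for the members and −0.18 for all such pairs, so the members lay at the median of all pairs. Leaving out 1 library gave between 13 and 18 higher ratios, with 13 without control replicate 3, 14 without control replicate 2, 15 without control replicate 1 or Sev replicate 1 and 16 without Sev replicate 2. For lower ratios the number was between 36 and 43, with 36 without control replicate 1. Among the 67 pairs in which only the antisense RNA was called the ratio was called in 33, and among the 69 with only the sense gene called in 18. All 11 opposite pairs had a called ratio, which calls in opposite directions in the same libraries nearly ensure. Of the 56 pairs with a lower ratio, 25 had an antisense RNA called lower beside a sense gene that was not called, and 12 had a sense gene called higher beside an antisense RNA that was not called.

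The relative level was compared per length, as the FPKM of the antisense RNA in percent of the FPKM of its sense gene. Across the 291 pairs its median was 27.5% in control and 23.1% in Sev, and the antisense RNA had the higher mean FPKM in 49 pairs in control and 45 in Sev. SLC16A1-AS1 was at 6.23%, 4.63% and 4.89% of SLC16A1 in control and at 0.757%, 0.538% and 0.941% in Sev (ratio change −2.80 on the log2 scale, SE 0.25, adjusted p = 0.000737). GASK1B-AS1, with the lowest fold change of all members (−2.79 on the log2 scale), was at 18.6%, 12.8% and 14.4% of GASK1B, a Golgi kinase-like gene, in control and at 3.02%, 1.503% and 2.66% in Sev (ratio change −2.68, SE 0.29, adjusted p = 0.00149). At both loci each Sev library was below each control library. NNT-AS1 went from 22.5%, 21.4% and 22.6% to 6.92%, 6.13% and 8.20% of NNT (ratio change −1.63, adjusted p = 0.00201), while NNT had a log2 fold change of −0.18 that did not pass the test (adjusted p = 0.0933).

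GSN, the gene of the actin-severing protein gelsolin, was not called (log2 fold change −0.06, adjusted p = 0.663), while GSN-AS1 fell by 1.83 on the log2 scale. Its ratio changed by −1.81 (SE 0.21, adjusted p = 0.00201). The 6 ratios called higher with the smallest p were those of EMC3-AS1, CYP2U1-AS1, PALLD-AS1, ID2-AS1, TTC23-AS1 and OIP5-AS1. Of these, CYP2U1-AS1, PALLD-AS1, ID2-AS1 and TTC23-AS1 passed the limit for members only through the Sev libraries. EMC3-AS1 went from 12.0%, 8.66% and 7.62% to 35.0%, 32.4% and 38.4% of EMC3 (ratio change 1.92, SE 0.23, adjusted p = 0.00201). ID2-AS1 went from 2.00%, 2.11% and 2.36% to 6.46%, 4.95% and 6.93% of ID2 (ratio change 1.47, SE 0.21, adjusted p = 0.00440), so it rose more than ID2 did. At MELTF the ratio moved down, by 1.36 on the log2 scale (adjusted p = 0.00480 in edgeR), although both RNAs rose.

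**Figure D4:**
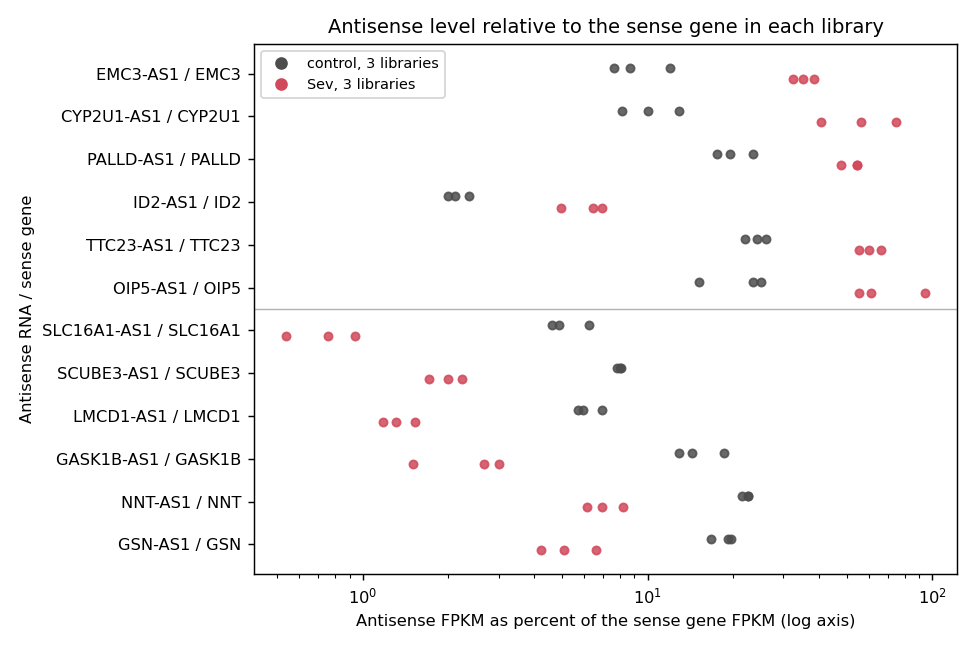
FPKM of the antisense RNA as percent of that of its sense gene, on a log axis, for the 6 pairs with the smallest p for a higher ratio (top) and the 6 for a lower ratio (bottom), with 1 point for each of the 3 control (grey) and 3 Sev (red) libraries. The groups do not overlap in any of the 12 pairs; SLC16A1-AS1 moves from between 4.63% and 6.23% to between 0.538% and 0.941%.

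Most members were annotated as antisense genes in GENCODE 29 (231 of 300). By position, 110 lay head to head with the sense gene, 108 had one gene inside the other (87 of them with the antisense RNA inside the sense gene) and 69 lay tail to tail. Head to head took in genes that overlap at their 5′ ends, so it does not mean a shared promoter or starts that point apart. The distance between the 5′ ends of the head-to-head pairs had a median of 795 bases and a maximum of 39320 bases. In 6 pairs the genes did not overlap and in 2 they were on the same strand. Of the head-to-head RNAs 26 (23.6%) were higher and 30 (27.3%) lower, of those inside 28 (25.9%) and 33 (30.6%), and of the tail-to-tail RNAs 11 (15.9%) and 26 (37.7%), beside 22.2% and 21.5% of all features. The median log2 fold change was −0.09, 0.02 and −0.40, respectively, and no test was made between arrangements. The ratio was called higher in 8 (7.34%) and lower in 24 (22.0%) of 109 head-to-head pairs, in 14 (13.1%) and 18 (16.8%) of 107 inside and in 2 (2.99%) and 13 (19.4%) of 67 tail to tail, beside 7.89% and 16% of all pairs.

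**Figure D5:**
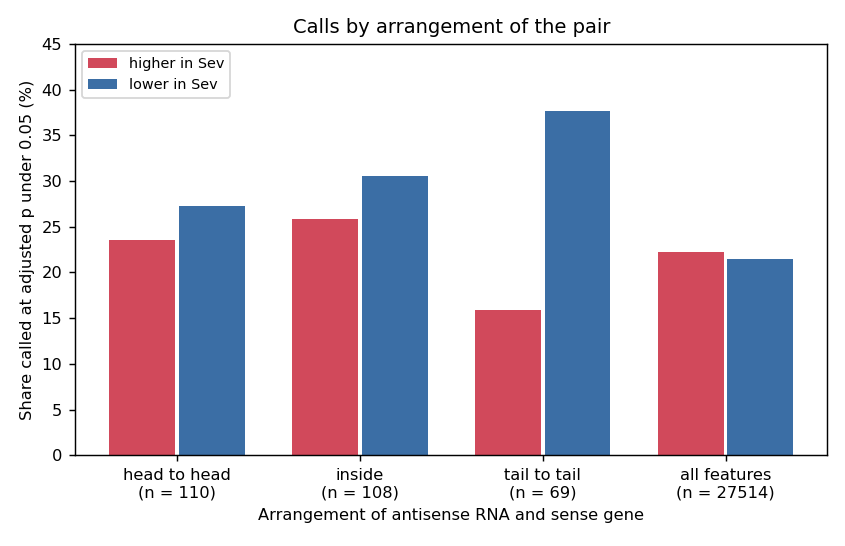
Share of antisense RNAs called higher (red) and lower (blue) in Sev at an adjusted p under 0.05, in percent, by their arrangement with the sense gene, with all 27514 features at the right. The share called lower is 37.7% tail to tail, beside 15.9% called higher.

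The 18 pairs with shared promoter windows did not share 1 outcome. Both RNAs were called higher in 3 (ID2, RAB35 and PCBP1), and 1 pair, LMCD1, was called in opposite directions. In 7 pairs the antisense RNA was lower and the sense gene was not called, an outcome of 51 of all 291 pairs (17.5%). In 2 pairs the antisense RNA was higher and the sense gene not called, in 2 only the sense gene was higher, in 1 only the sense gene was lower, and in 2 neither was called. In none were both RNAs lower. The pairs named here besides ID2, LMCD1 and TPT1 were chosen after their values were seen. HERPUD2-AS1, whose start is 71 bases from that of HERPUD2, went from between 11.7 and 12.0 CPM in control to between 4.33 and 5.37 CPM in Sev (log2 fold change −1.31, adjusted p = 0.000358), and HERPUD2 had 0.26 (adjusted p = 0.0980). EIF1B-AS1, with a start 9 bases from that of EIF1B, a translation initiation factor gene, fell by 1.66 on the log2 scale (adjusted p = 0.000483), and EIF1B had 0.25 (adjusted p = 0.114). The ratio was called in both (adjusted p = 0.00462 and 0.00219). EIF1B-AS1 had a Sev mean of 1.48 CPM before TMM scaling, so it passed the limit for members through the control libraries. LMCD1-AS1 did so too, and ID2-AS1 and RAB35-AS1 passed it only through the Sev libraries. TPT1-AS1 fell by 0.44 on the log2 scale (adjusted p = 0.0185), a call lost in the fits that left out replicate 1 or 3 of either group (adjusted p in edgeR between 0.0514 and 0.0593). TPT1 had 0.02 (adjusted p = 0.888, negative with library size scaling), and the ratio at TPT1 was not called (adjusted p = 0.177).

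Overlap with exons on the other strand bears on how reads could be assigned. For 61 members no exon overlapped one on the other strand, and of these 15 (24.6%) were higher and 16 (26.2%) lower, beside 22.2% and 21.5% of all features. At the threshold of the study 8 (13.1%) were higher and 11 (18.0%) lower, beside 11.4% and 12%. Their ratio to the sense gene was higher in 7 (11.9%) and lower in 15 (25.4%) of 59 pairs, beside 7.89% and 16% of all pairs. Of 75 members with at least 25% of their exon bases overlapped, 14 (18.7%) were higher and 23 (30.7%) lower. Members called lower had a median exon length of 3775 bases and a median GC content of 46.6%, those called higher 2300 bases and 49.3%, and those not called 3033 bases and 49.0%. The part of length, GC content and strand assignment in the calls was not tested.

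A list of antisense RNAs studied in glioma or other cancers had 25 genes among the members. Of these 3 (12.0%) were called higher, 10 (40.0%) lower and 12 not, beside 22.2% and 21.5% of all features. The higher ones were OIP5-AS1, ST7-AS1 (log2 fold change 1.06) and VIM-AS1 (log2 fold change 0.54), the last of which lost its call in 5 of 6 fits without 1 library, all but that without Sev replicate 1 (adjusted p in edgeR between 0.0587 and 0.123). DLX6-AS1, from the locus of a homeobox gene of the developing forebrain, was at 9.02, 8.90 and 7.12 CPM in control and at 2.28, 2.31 and 3.18 CPM in Sev (log2 fold change −1.69, SE 0.19, adjusted p = 0.000536). DLX6 itself was not called (log2 fold change 0.22, adjusted p = 0.318). Before TMM scaling DLX6-AS1 had a Sev mean of 2.48 CPM and ST7-AS1 a control mean of 2.40 CPM. Each passed the limit for members only through the group in which it was higher. MCM3AP-AS1 fell by 1.34 on the log2 scale (adjusted p = 0.000399 in edgeR), while MCM3AP had a log2 fold change of 0.01 (SE 0.07, adjusted p = 0.930), whose sign differed between scalings.

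HOXC-AS2 fell by 1.17 on the log2 scale, from 6.62 ± 0.400 to 2.93 ± 0.458 CPM (SD, n = 3). Its Sev mean before TMM scaling was 2.80 CPM, so it passed the limit for members through the control libraries. AFAP1-AS1 and ZNF337-AS1 both fell by 0.80 on the log2 scale. The call of AFAP1-AS1 was lost without any 1 of the control libraries or Sev replicate 1 (adjusted p in edgeR between 0.0889 and 0.106), and ZNF337-AS1 missed the threshold without control replicate 1 or 2 and without the third Sev library (adjusted p in edgeR between 0.0526 and 0.0555). GATA2-AS1 was at 8.88 ± 1.09 CPM in control and 9.95 ± 0.666 CPM in Sev and was not called. GATA2, a hematopoietic transcription factor gene, was called higher (log2 fold change 1.21, adjusted p = 0.00178). At AGAP2, a GTPase-activating protein gene, the sense gene fell by 1.04 on the log2 scale and AGAP2-AS1 had 0.26 (adjusted p = 0.178). Those not called also included FGD5-AS1, TTN-AS1, ASB16-AS1, ZNF667-AS1, FOXD2-AS1, TMPO-AS1, SBF2-AS1, ZBTB11-AS1 and RBM5-AS1.

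Genes of RNA decay and of double-stranded RNA handling were read as fixed lists beside the members. Of 27 genes of the nuclear exosome and its adaptors, 10 (37.0%) were higher and 1 (3.70%) lower, with a median log2 fold change of 0.15, beside 22.2% higher, 21.5% lower and a median of −0.01 over all features. EXOSC5 and EXOSC9, subunits of the exosome core, rose by 0.88 and 0.66 (adjusted p = 0.000909 and 0.00267 in edgeR). The lower one was ZFC3H1, the scaffold of the poly(A) tail exosome targeting connection, at 65.8 CPM in control and 27.0 CPM in Sev (log2 fold change −1.28, adjusted p = 7.42e-05 in edgeR). Of 18 Integrator genes 1 (5.56%) was higher and 7 (38.9%) lower, with a median of −0.12. INTS3 and INTS4 had log2 fold changes of −1.55 and −0.61, and the higher one, INTS15, had 0.63.

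Of 28 genes that edit, sense or process double-stranded RNA, 10 (35.7%) were higher and 9 (32.1%) lower, with a median of 0.05, so both shares lay above those of all features (22.2% and 21.5%). MAVS, the mitochondrial adaptor of RNA sensing, fell by 0.92 on the log2 scale. DGCR8, of the microRNA processor, and DHX9, an RNA helicase, rose by 0.57 and 0.67. Of 14 genes of cytoplasmic decay 8 (57.1%) were higher and 2 (14.3%) lower, with a median of 0.27. SMG5 and UPF1, both of nonsense-mediated decay, rose by 0.66 and 0.59, while UPF2 and XRN1 fell by 0.42 and 0.36 on the log2 scale. The sum of the exosome list was between 1210 and 1348 CPM in control and between 1386 and 1426 CPM in Sev, that of the Integrator list between 996 and 1053 CPM and between 855 and 905 CPM. These sums are TMM-scaled, with factors of 1.03 to 1.08 in control and 0.918 to 0.988 in Sev. The lists were not summed with library size alone, which moved the median of all features from −0.01 to −0.15. The rise of the exosome sum may therefore depend on the scaling. Whether these levels bear on those of the antisense RNAs was not tested.

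The limit of 300 members fell at a mean level of 3.18 CPM. Just inside it were ANK2-AS1, which was not called (log2 fold change −0.03, adjusted p = 0.936), and EHD4-AS1, at 1.83 ± 0.439 CPM in control and 4.71 ± 2.14 CPM in Sev (SD, n = 3). The next below were FOXN3-AS2 and EGFR-AS1, with mean levels of 3.17 and 3.16 CPM. In 28 members the control mean alone was under that limit, and 24 of them were called higher and none lower. In 40 the Sev mean alone was under it, and 30 of them were called lower and none higher. These 68 passed the limit only through the group in which they were higher, so their direction is in part set by the choice of members. Among the other 232 members, 45 (19.4%) were higher and 63 (27.2%) lower, beside 22.2% and 21.5% of all features, a choice that in turn removes strong changes.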

How the data were processed

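RNA of U251 cells was sequenced in 3 control and 3 Sev libraries. The authors deposited raw counts per gene and FPKM values (fragments per kilobase and 1000000 mapped). The submitters' processing notes name bcl2fastq 2.19, featureCounts and hg18, and the aligner, annotation and strand setting are not given in the sources used here. Ensembl identifiers were joined to symbols (60295 of 61496 features) and to GENCODE 29 positions on GRCh38 (58457), so coordinates are those of GRCh38 and not of the submitters' build. The 932 features without a reference identifier were kept in the fit.

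Counts were analyzed in R 4.3.3 with edgeR 4.0.16 (filterByExpr, TMM, glmQLFit, glmQLFTest) over 27514 features, with the Benjamini-Hochberg adjustment over all of them. CPM values are scaled by TMM, except the mean CPM that chose the members, which is the count divided by the library total. The antisense-to-sense ratio was tested as the interaction of strand role and group with a term for each library over 1052 pairs. Each SE was derived from the F statistic of its log2 fold change. An exact permutation test of 3 against 3 libraries cannot go below p = 0.1. Head to head means genes on opposite strands that start within 1000 bases of each other or overlap at their 5′ ends. The members and lists were chosen with earlier results of these data known. Named were the 8 members with the smallest p in each direction and no overlap, the 8 most abundant, 6 pairs in each direction with the smallest ratio p, 8 opposite and 8 same-direction pairs, studied antisense RNAs, members at the limit, and 2 genes in each direction of each decay list, a few of which are not reported here. Alternatives were other scalings, DESeq2 1.42.0, limma 3.58.1 on the ratio or on the deposited FPKM, other filters, a replicate block, each library left out and other member limits. No label says whether replicate numbers pair the libraries, and the main fit used no pairing. The models were also run on simulated counts, with an outcome that is not reported here. Python 3.11.15 with pandas 2.3.3 and matplotlib 3.10.9 was used for summaries.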

Additional observations from a re-analysis of the deposited data

How the results depend on the processing

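Of 44 named antisense RNAs that were called, 36 kept direction and call under each alternative scaling, test, filter, block and left-out library that could be fitted for them (13 to 15 for each of them), and 8 lost the call under at least one. The threshold of the study and other choices of members are not part of this. Of 34 called sense genes 11 lost it and of 33 called ratios 5, and no called value changed direction. Calls were gained under at least one alternative by 1 antisense RNA that was not called (GABPB1-AS1), by 8 sense genes and by 2 ratios. Among the sense genes were NNT (4 of 15 alternatives, lowest adjusted p = 0.0161 over edgeR, DESeq2 and limma) and GASK1B (4 of 15, lowest adjusted p = 0.0219), so their lack of a call depends on the setting. The counts moved by over 1.5 times as follows. The threshold of the study gave 33 antisense RNAs higher and 49 lower, 22 sense genes higher and 11 lower, 18 pairs in the same and 0 in opposite directions, and 16 ratios higher. Members without exon overlap on the other strand, a set chosen after seeing the data, gave 15 higher and 16 lower, 21 and 14 sense genes, 17 pairs in the same and 4 in opposite directions, and 7 ratios higher and 15 lower. A minimum mean of 5 CPM left 206 members, with 60 sense genes higher, 52 pairs in the same and 6 in opposite directions. All 413 antisense RNAs of at least 2 CPM, a set also added after seeing the data, gave 17 opposite pairs. Without the filter on low counts 7 pairs were opposite. With limma on log2(FPKM + 1) without a filter 41 antisense RNAs and 59 sense genes were higher and 7 pairs were opposite. Samples of the same replicate number did not vary together across features (correlations of −0.07, 0.01 and 0.07). No label says whether the numbers pair the libraries, and these correlations cannot decide it. A replicate block gave 63 antisense RNAs higher and 89 lower, 6 opposite pairs and 18 ratios higher. The limit of 1 CPM gave the same 300 members, and other scalings cancel in the ratio by construction. The cause of the other moves was not tested.

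Without 1 library, antisense RNAs called higher numbered 55 to 66 and lower 76 to 89, sense genes 70 to 92 and 41 to 62, pairs in the same direction 52 to 72 and in opposite directions 5 to 12, ratios higher 13 to 18 and lower 36 to 43.

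The values that changed sign were all of RNAs or ratios that were not called. ANK2 had a log2 fold change of −0.032 with library size scaling, −0.029 with limma on log2(FPKM + 1) with or without the filter and −0.045 with a pseudocount of 0.1. MCM3AP had a log2 fold change of −0.13 with library size scaling, −0.13 with limma on log2(FPKM + 1) with or without the filter, −0.0032 without the filter on counts and −0.13 with a pseudocount of 0.1. SBF2-AS1 had a log2 fold change of −0.060 with library size scaling, −0.032 with limma on log2(FPKM + 1) with or without the filter and −0.067 with a pseudocount of 0.1. STARD4 had a log2 fold change of −0.12 with library size scaling, −0.096 with limma on log2(FPKM + 1) with or without the filter and −0.12 with a pseudocount of 0.1. TPT1 had a log2 fold change of −0.11 with library size scaling, −0.10 with limma on log2(FPKM + 1) with or without the filter and −0.10 with a pseudocount of 0.1. Over the fits without 1 library, the log2 fold change ran from −0.020 to 0.22 for ANK2, −0.24 to 0.18 for ANK2-AS1, −0.17 to 0.034 for GSN, −0.17 to 0.024 for HIF1A, −0.021 to 0.047 for MCM3AP, −0.043 to 0.067 for STARD4, −0.21 to 0.12 for TMPO, −0.035 to 0.40 for TMPO-AS1, −0.077 to 0.17 for TPT1, −0.22 to 0.048 for ZBTB11-AS1 and −0.064 to 0.013 for ZNF667. The change of the ratio ran from −0.35 to 0.11 for ANK2-AS1, −0.12 to 0.44 for EHD4-AS1, −0.31 to 0.0055 for FOXD2-AS1, −0.36 to 0.011 for NUTM2B-AS1, −0.11 to 0.098 for SH3BP5-AS1, −0.019 to 0.32 for ST7-AS1 and −0.071 to 0.41 for TMPO-AS1.

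With 3 libraries a group, a difference smaller than the spread between libraries could not be detected. The lowest count in a library was 3 for MTUS2-AS1, and the median of the lowest counts over the members was 162.5. Whether depth limited the calls was not tested. The GC content, length and strand assignment of the members were not modelled.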

Other observations

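Beyond the 300 members, 113 antisense RNAs had a mean level of at least 2 CPM. Of these 18 (15.9%) were called higher and 29 (25.7%) lower in Sev by the same edgeR fit, beside 22.2% and 21.5% of all features. Of the 1409 antisense RNAs under 2 CPM, 679 passed the filter on low counts, and 82 of them (12.1%) were higher and 136 (20%) lower. At the threshold of the study 80 (11.8%) of the 679 were higher and 129 (19%) lower, beside 11.4% and 12% of all features.

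Among the studied antisense RNAs outside the members, LBX2-AS1 rose from 2.11 ± 0.3004 to 4.06 ± 0.811 CPM (SD, n = 3, log2 fold change 0.94, adjusted p = 0.00901 in edgeR). ADORA2A-AS1 rose by a log2 fold change of 0.72, and SPRY4-AS1, from the locus of a feedback inhibitor of receptor tyrosine kinases, fell by 0.66 on the log2 scale. HOXC-AS1 fell by 1.47 on the log2 scale, from 0.995 to 0.357 CPM, and HOXC-AS2 of the same cluster fell by 1.17. EGFR-AS1 was at 3.64 ± 0.541 CPM in control and 2.64 ± 0.821 CPM in Sev and was not called (adjusted p = 0.171 in edgeR), and neither was ZEB1-AS1 (log2 fold change 0.75, adjusted p = 0.122 in edgeR). CDKN2B-AS1 and ARAP1-AS1 held 0 counts in all 6 libraries.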
